A study of Mus musculus with 2 samples.

Results

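The cytosolic ribosomal proteins were examined across 2 mouse leukaemia populations, 1 array each. The rule for members used gene symbols and no measured value: every non-control probe whose RefSeq accession matched a symbol of the Rpl or Rps type, with the stalk genes Rplp0, Rplp1 and Rplp2 and the gene Rpsa, and without pseudogenes or S6 kinases. That gave 85 genes, 52 of the large and 33 of the small subunit, out of 20618 genes with a symbol on the array. They were covered by 175 probes on 184 spots out of 43020.

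Both samples were mouse bone marrow cells of B-cell acute lymphoblastic leukaemia (B-ALL), labelled as 8 weeks of age, and were sorted by SoNar, a fluorescent cytosolic sensor of the NADH/NAD+ balance. The SoNar-high population had the high emission ratio under violet against blue excitation and the SoNar-low population the low one. The titles call the same samples N-myc-high and N-myc-low, and strain, treatment, number of animals pooled and the way the leukaemia was made are not given in the sources used here. With 1 array per population there was no replicate, no test between the populations and no p-value, so every value below compares 2 RNA samples, and precision is limited by that number.

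The cytosolic ribosome translates nuclear mRNAs. Its small subunit holds the mRNA and the decoding site, and its large subunit joins the amino acids and passes the new chain out through a tunnel. Ribosomal protein genes are among the most strongly transcribed genes of growing cells, and most of their products are needed in equal numbers. Most of their mRNAs begin with a terminal oligopyrimidine tract (TOP), a run of C and T bases at the start. Through this tract mTOR signalling controls the translation of these mRNAs. MYC proteins are known to raise the transcription of ribosomal protein genes. Processed pseudogenes of nearly the same sequence are common for this family, so a probe can bind RNA of more than 1 locus; the probe sequences were not analysed here, and every value below is uncertain in that respect.

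The start regions of 6 members are shown because they are the 3 lowest and the 3 highest measured members that have an entry in the RefSeq table (build GRCm38.p6). Each line runs 5′ to 3′ from 20 bases before to 10 bases after the annotated start, and capitals mark the longest run of at least 6 C or T bases on the gene's own strand.
Rpl7a, chr2:26910787-26910816, plus strand: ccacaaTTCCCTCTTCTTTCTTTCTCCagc
Rps3a1, chr3:86142659-86142688, minus strand: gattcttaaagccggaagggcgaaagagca
Rpl4, chr9:64173367-64173396, plus strand: agTCTTTCCTTTTCCTgtgggagcagccgg
Rpl37a, chr1:72711240-72711269, plus strand: gtcacttccgctcgccggtctaaaaccgcg
Rps26, chr10:128626497-128626526, minus strand: agcgggtcgggcaagccgccggaTCCTCTT
Rpl22l1, chr3:28805488-28805517, plus strand: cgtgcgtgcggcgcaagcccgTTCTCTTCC

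Such a run was found in 41 of 76 start regions of 64 members (53.9%), against 30.3% of all 32851 start regions in the table. It did not divide the members by their difference between the arrays: the median was 0.09 (SoNar-high minus SoNar-low, log2) over 39 measured genes with a run and 0.12 over 22 without. The E-box CACGTG, which MYC proteins bind, lay in 8 of the 76 regions of 300 bases (10.5%), against 7.15% of all. The 6 measured genes with it had a median of 0.27 and the other 55 a median of 0.09. Those 6 ran from 0.10 to 0.49, within the range of the 55, from -1.61 to 0.70. CCGGAAG, a core that ETS family factors bind, was present on either strand in 27 of the 76 (35.5%, against 8.86% of all), and the medians with and without it were both 0.10. A match is a stretch of letters and not a shown binding site; RefSeq starts can be off by some bases, and the motifs were searched separately and can overlap.

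Of the arrays as a whole, the share of spots well above background was 44.8% (SoNar-high) and 72.9% (SoNar-low), with no saturated spot. Processed signals are intensity units, and log2 values were taken relative to each array's 75th percentile over probes, 409 units (SoNar-high) and 470 units (SoNar-low). Equal signals on both arrays therefore give a difference of 0.20, and the median of all 10521 genes measured on both arrays was 0.22. Among 197 probes printed as 10 spots, the difference between 1 spot of each array had a median SD of 0.15. The B lineage was represented by 12 markers on the array, of which 10 were measured in both populations, with a median difference of 0.36, while the surrogate light chain gene Igll1 and the recombinase gene Rag1 were not well above background on either. Summed signals of marker lists were 53499 units (SoNar-high) and 46768 units (SoNar-low) for the B lineage and, in the same order, 18384 and 25352 for neutrophils, 463 and 811 for monocytes and macrophages, 883 and 2315 for T and NK cells and 23108 and 15298 for erythroid cells. Nearly all of the erythroid sum came from Hemgn (22791 and 14153 units, 0.89), while Hba-a1 was at -1.82 and Ermap at -1.61. Below 0 were 8 of 9 neutrophil, 3 of 4 monocyte and macrophage, 3 of 3 T and NK and 2 of 3 erythroid markers, and 2 of 10 of the B lineage. Their part in the results below was not tested. The arrays were scanned on different days, so that the scan cannot be told apart from the population.

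The first question was whether ribosomal protein transcripts had other levels in one population than in the other. Measured on both arrays were 81 of the 85 members, and their median difference was 0.10, or -0.12 relative to the median gene. The quartiles were -0.13 and 0.33. None of the 81 was at least 2-fold higher on the SoNar-high array, against 2.4% of all genes. The 2 that were at least 2-fold lower, Rpl7a and Rps3a1, make 2.47%, against 4.39% of all genes. Over all genes, the share past 2-fold was thus not above the background. Both have several measured probes, however. Among genes with several measured probes they were 2 of 51 members, against 1.34% of all 2394 such genes. There the share was above the background, but it rests on 2 genes, and this subset was taken after seeing the data. In all, 72 members (88.9%) lay within 1.5-fold. Past it were 5 higher and 4 lower, against 20.4% and 10.2% of all genes. Below 0 were 31 members (38.3%, against 33.1% of all genes), and below the median gene were 52 (64.2%). In bulk RNA, fewer cells of a type and less RNA per cell cannot be told apart.

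The sign of the members' median depended on the scaling. It was 0.67 with median scaling, where 15 members and 32.1% of all genes were at least 2-fold higher. It was -0.19 with a 75th percentile taken from measured probes only and -0.07 with loess on the level. With normexp it was -0.01, with quantile normalization -0.02 and in the authors' deposited series matrix -0.0043. Over all genes the main scaling put 253 past 2-fold higher and 462 lower. That split was 3380 and 140 with median scaling, 61 and 853 with the 75th percentile of measured probes, 348 and 392 with quantile normalization, 118 and 530 with loess, 72 and 241 with normexp and 430 and 359 in the series matrix. Relative to the median gene the members' median was -0.12 under the main scaling and with loess. It was -0.22 with normexp, -0.21 with quantile normalization and -0.22 in the series matrix. Median scaling and the 75th percentile of measured probes shift all genes alike, so they could not change this value. With no filter on dim probes the members' median relative to the median gene was 0.055. There the members' median was still 0.10 while that of all genes was 0.05.

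**Figure D1:**
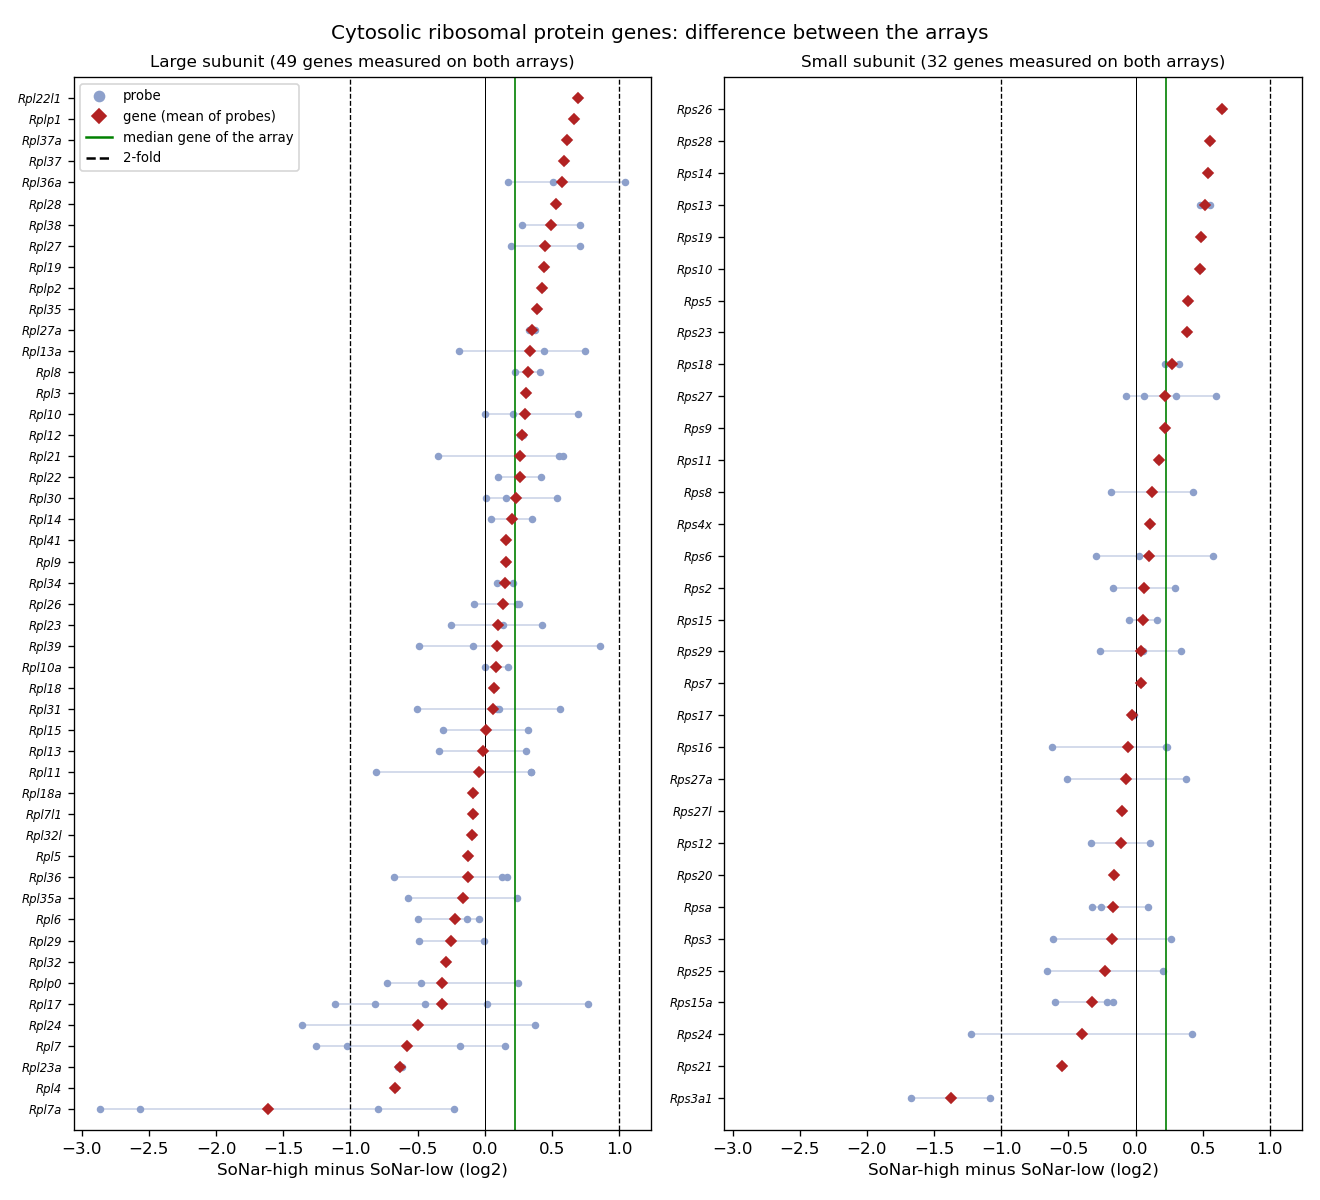
Difference between the arrays (SoNar-high minus SoNar-low, log2) of the 49 large subunit genes and the 32 small subunit genes measured on both arrays, in order; circles are probes, diamonds the mean of a gene's probes, the green line the median gene at 0.22 and the dashed lines 2-fold. Diamonds run from -1.61 (Rpl7a) to 0.70 (Rpl22l1), and only Rpl7a and Rps3a1 lie past a dashed line under the main scaling.

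The subunits overlapped. The large subunit genes had a median of 0.14 and ran from Rpl7a at -1.61 to Rpl22l1 at 0.70. The small subunit genes had a median of 0.06 and ran from Rps3a1 at -1.38 to Rps26 at 0.64. Below the median gene were 29 of 49 large subunit genes (59.2%) and 23 of 32 small subunit genes (71.9%).

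Rpl7a encodes a large subunit protein that binds ribosomal RNA, and its start region above holds the longest run of the 6 shown. Its 4 probes read 39895, 9960, 4000 and 3306 units on the SoNar-high array and 53763, 19888, 27288 and 27685 units on the SoNar-low array. All 4 were higher on the SoNar-low array, but by very different amounts: the differences were -0.23, -0.80, -2.57 and -2.86 in that order. The mean of -1.61 (a 3.06-fold difference) thus rests on 2 probes, and the probe with the most signal alone gives -0.23.

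Rps3a1 encodes a small subunit protein at the side of the mRNA exit, and no run marks its start region above. Its probes read 13071 and 5935 units on the SoNar-high array against 31815 and 21695 units on the SoNar-low array, with differences of -1.08 and -1.67. It was the 1 member of 51 with several measured probes for which every probe was at least 2-fold lower (1.96%, against 0.251% of such genes on the whole array). Its value of -1.38 (2.59-fold) became -0.81 with median scaling, which ends the call. Near-identical copies of this gene exist in the mouse genome, so its signal may include theirs.

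After these 2 the lowest members were Rpl4 (-0.67), Rpl23a (-0.63), Rpl7 (-0.58) and Rps21 (-0.54), none past 2-fold. Rpl4, which lines the exit tunnel, read 32402 units (SoNar-high) and 59364 units (SoNar-low) by its 1 probe. Rpl23a, a protein at the tunnel exit, had 2 probes that matched closely. These read 42496 and 25634 units on the SoNar-high array and 74765 and 46083 on the SoNar-low array, which gave -0.61 and -0.64. Rps21 read 16446 and 27584 units in the same order of arrays, by 1 probe.

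The 6 highest members were Rpl22l1 (0.70), Rplp1 (0.67), Rps26 (0.64), Rpl37a (0.61), Rpl37 (0.59) and Rpl36a (0.57), and none was past 2-fold under the main scaling. Under median scaling all 6 would be, since that scaling adds 0.57 to every gene. Rps26, which contacts mRNA upstream of the start codon in the exit channel, read 8637 units (SoNar-high) and 6353 units (SoNar-low). Rpl37 read 89511 and 68534 units and Rpl37a 60580 and 45564 units in the same order; both are small proteins of the large subunit. The first 5 of the 6 each had 1 measured probe. Rpl36a had 3, at 1.04, 0.51 and 0.17, and the first of these was the only one of 162 measured member probes to be at least 2-fold higher (0.617%, against 2.44% of all measured probes).

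The ribosomal stalk, which recruits the translation factors that hydrolyse GTP, was not shifted as 1 unit. Rplp0, the base of the stalk, was at -0.32. Its 3 probes read 85303, 35179 and 25263 units on the SoNar-high array against 82558, 56343 and 48168 on the SoNar-low array, so they ran from 0.25 to -0.73. Rplp1 was at 0.67, with 14618 units (SoNar-high) and 10595 units (SoNar-low). Its partner Rplp2 was at 0.42, with 108298 and 92885 units. Rplp1 and Rplp2 thus lay above the median gene and Rplp0 below it, and the probe of Rplp0 with the most signal lay with those genes.

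Rpl5 and Rpl11, which bind the 5S ribosomal RNA, and Rpl23 can restrain the p53 ligase Mdm2. By the mean of their probes all 3 lay below the median gene, as did 64.2% of all measured members. By its probe with the most signal alone Rpl11 was at 0.35, above the median gene of 0.27 under that setting. Rpl5 was at -0.13 by 1 probe with 29561 units (SoNar-high) and 37103 units (SoNar-low). Rpl11 was at -0.04 as the mean of 2 probes at 0.35 and 1 at -0.81; the latter read 30300 units (SoNar-high) and 61219 units (SoNar-low). Rpl23 was at 0.10 over 3 probes from -0.26 to 0.43. One of its probes was printed as 10 spots, which ran from 789 to 1109 units (median 889) on the SoNar-high and from 735 to 834 (median 773) on the SoNar-low array. Its difference over spots was 0.43 ± 0.13 (SD, n = 10 spots of 1 array pair). The spread between the gene's probes, from -0.26 to 0.43, was therefore wider than that between spots of a probe.

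Genes mutated in Diamond-Blackfan anaemia, a failure of red cell production, lay on both sides of the median gene: 12 of 18 were below it, with a median of 0.06 and a range from -0.40 (Rps24) to 0.64 (Rps26). Rps19, the gene most often mutated in that disease, was at 0.49 by 1 probe, with 6848 units (SoNar-high) and 5613 units (SoNar-low). Rps14, whose loss marks the 5q- syndrome, was at 0.54, with 93788 and 74333 units. Proteins around the exit tunnel had a median of 0.08 over 8 genes, and those at the decoding site and the mRNA channel a median of 0.14 over 6. No gene of these lists was past 2-fold under the main scaling.

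Rps6, the substrate of the S6 kinases, was at 0.10, with 3 probes at 0.02, -0.29 and 0.58. Rpsa, which also serves as a laminin receptor precursor, was at -0.17, with 4 probes from -0.33 to 0.09. Rps27a, made as a fusion with ubiquitin, was at -0.07, the mean of probes at 0.38 and -0.51. Another Rps27a probe, for another transcript accession, read 37.1 units on the SoNar-high array, not well above background there, and 37.9 on the SoNar-low array. None of these 3 genes had probes that all lay on 1 side of 0.

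Several members have near-copies that are used in particular tissues or conditions. Of the 7 examined, Rpl22l1, Rpl7l1 and Rps27l were measured on both arrays. Rpl22l1, which can take the place of Rpl22, was the highest member at 0.70, with 1534 units (SoNar-high) and 1088 units (SoNar-low). Rpl22 itself was at 0.26, with probes at 0.10 and 0.42. Rps27l, a p53 target, was at -0.10, with 6491 and 8022 units, and its parent Rps27 was at 0.22, with 4 probes from -0.07 to 0.60. Rpl7l1 was at -0.09, with 199.6 and 243.6 units, and Rpl7 at -0.58. The probes of the muscle gene Rpl3l and of Rpl39l, known from testis, were not well above background on either array. Of 2 probes of the testis gene Rpl10l 1 cleared the background on 1 array, with 41.6 units (SoNar-low) against 38.0 (SoNar-high), and the Rps4l probe did so too, with 24.4 against 31.4 units in the same order. No fold is given for these 4, because the lowest signal well above background was 46.4 units (SoNar-high). The parents Rpl3 (0.31), Rpl10 (0.30), Rpl39 (0.09) and Rps4x (0.11) were all measured.

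The second question was how well the probes of a member matched each other. Of the 81 measured members 51 had several measured probes, whose differences spanned a median of 0.60, against 0.47 for the 2394 such genes of the whole array. In 29 of the 51 (56.9%) the probes lay on both sides of 0, against 46.2% of all. In 8 (15.7%) they spanned at least 1, against 16.7%. At least 1 probe was 2-fold lower in 6 (11.8%), against 7.35%. Counted by probe, 9 of 162 were at least 2-fold lower (5.56%, against 6.83% of all measured probes). Probes of 1 member thus spanned at least 1 about as often as elsewhere on the array. The span of a gene, and whether any of its probes passes a limit, also depend on its number of probes. Members and other genes were not matched for probe number or signal.

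**Figure D2:**
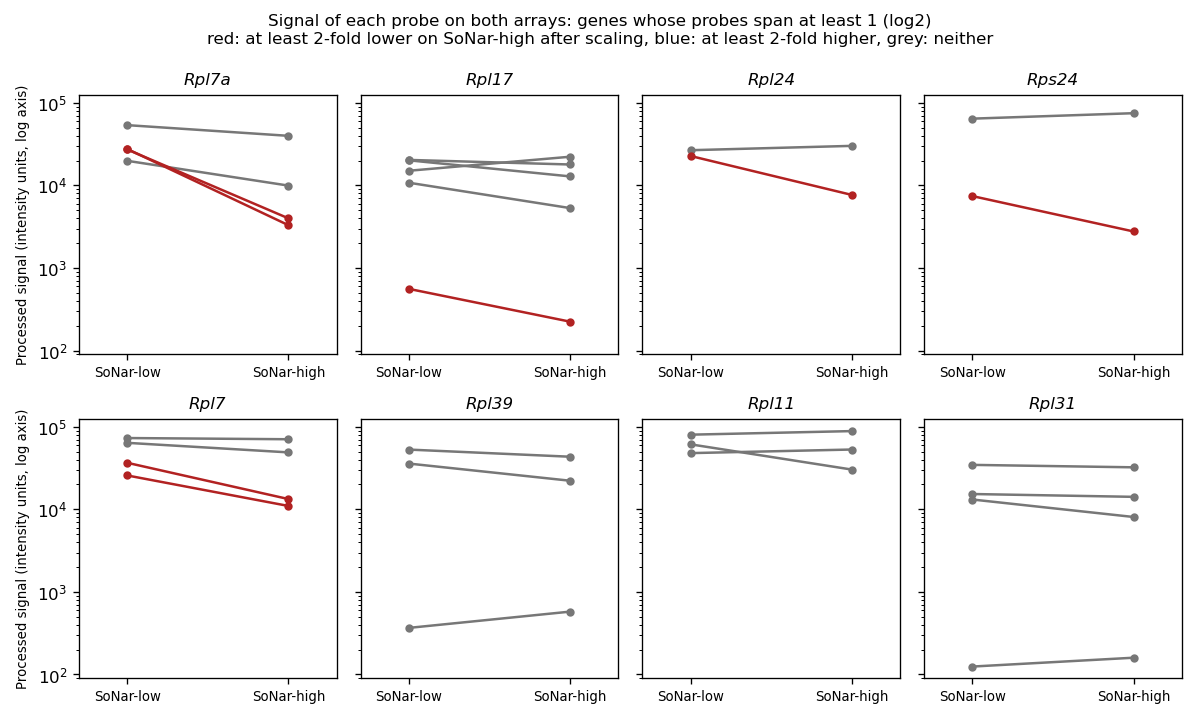
Processed signal (intensity units, log axis) of each measured probe on the SoNar-low and SoNar-high array for the 8 members whose probes span at least 1 on the log2 scale; each line is a probe, and red marks probes lower by 2-fold or more on the SoNar-high array after scaling. Rpl7a and Rpl7 have 2 red lines each, and Rpl17, Rpl24 and Rps24 have 1, while Rpl39, Rpl11 and Rpl31 have none.

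Rpl24 had probes on both sides of 0. Its first probe read 30151 units (SoNar-high) and 26716 units (SoNar-low), a difference of 0.38. Its second read 7677 and 22721 units, a difference of -1.36. One probe was thus slightly higher and the other past 2-fold lower on the SoNar-high array. The gene's mean of -0.49 describes neither probe.

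Rpl7 had 2 probes near 0, at 0.15 (70601 units (SoNar-high) and 72997 units (SoNar-low)) and -0.18 (48939 and 63873 units). Its other 2 were at -1.26 (13324 and 36629 units) and -1.03 (10991 and 25731 units). Rps24 had a probe at 0.42 (75002 and 64421 units) and a probe at -1.22 (2769 and 7433 units). These carry different transcript accessions of Rps24, a gene known for alternative splicing near its 3′ end. Whether the probes read different transcripts was not tested.

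Rpl17 had 5 measured probes, more than any other member. They were at 0.77, 0.02, -0.45, -0.82 and -1.12, and the last was also the dimmest, with 224.0 units (SoNar-high) and 558.9 units (SoNar-low). In Rpl7a, Rpl7, Rpl24, Rps24 and Rpl17 the probe with the most signal over both arrays (geometric mean) lay between -0.23 and 0.42. For Rpl17 this depends on the array, since by the SoNar-high array alone it is the probe at 0.77, with 22273 units. With the probe of most signal taken for every gene, the members' median was 0.19 in place of 0.10. By that probe 1 member, Rps3a1, stayed at least 2-fold lower, against 4.6% of all genes.

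In Rpl39 and Rpl31 the dimmest probe was the highest. Rpl39 was at 0.86 by a probe with 577 units (SoNar-high) and 367 units (SoNar-low), and at -0.09 and -0.49 by probes of 43356 and 22198 units on the SoNar-high array. Rpl31 was at 0.56 by a probe with 160 and 125 units, for another transcript accession than its other 3 probes, which were at 0.10, 0.09 and -0.50. A signal depends on the probe as well as on the RNA, so these units do not rank transcripts. At the other end, 22 of the 51 genes (43.1%) had probes within 0.5 of each other, among them Rpl23a above. That share was not counted over all genes with several measured probes, whose median span of 0.47 was itself under 0.5.

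Some member spots were flagged as non-uniform. Of the 184 member spots 4 were flagged on the SoNar-low array, out of 350 on that array, and 0 on the SoNar-high array. These were left out of all values above. They were 2 probes of Rpl17, at -3.03 and -1.23, 1 of Rpl13, at -0.54, and 1 of Rps24, at -0.75, so all 4 were lower on the SoNar-high array. With flagged spots kept the members' median was still 0.10 and the same number, 2, were at least 2-fold lower, against 4.68% of all genes. Rpl17, however, went from -0.32 to -0.84, which would make it the lowest member after Rpl7a and Rps3a1, and Rps24 went from -0.40 to -0.52.

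The third question was whether the members' values followed their signal. Over both arrays the 162 measured member probes had a median signal of 34331 units (geometric mean of the arrays), against 613 units for all 17188 measured probes, so the family sits at the bright end of the array. At 30000 units or more, 89 member probes had a median difference of 0.16 and 407 other probes one of 0.15. Between 10000 and 30000 units, 41 member probes had a median of -0.08 and 1107 others one of 0.29. Between 1000 and 10000 units these medians were 0.26 over 20 and 0.38 over 5323 probes, and under 1000 units 0.26 over 12 and 0.05 over 10189. Past 2-fold lower were 6 of the 41 member probes between 10000 and 30000 units (14.6%, against 5.06% of the others). Those 6 came from Rpl7, Rpl7a, Rpl24 and Rps3a1 only, and probes of 1 gene share the RNA sample and are not separate cases. Between 1000 and 10000 units 2 of the 20 were past 2-fold lower (10%, against 3.38%). Under 1000 units 1 of the 12 was past 2-fold lower (8.33%, against 9.08%), and at 30000 or more 0 of the 89 (against 0.983%).

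**Figure D3:**
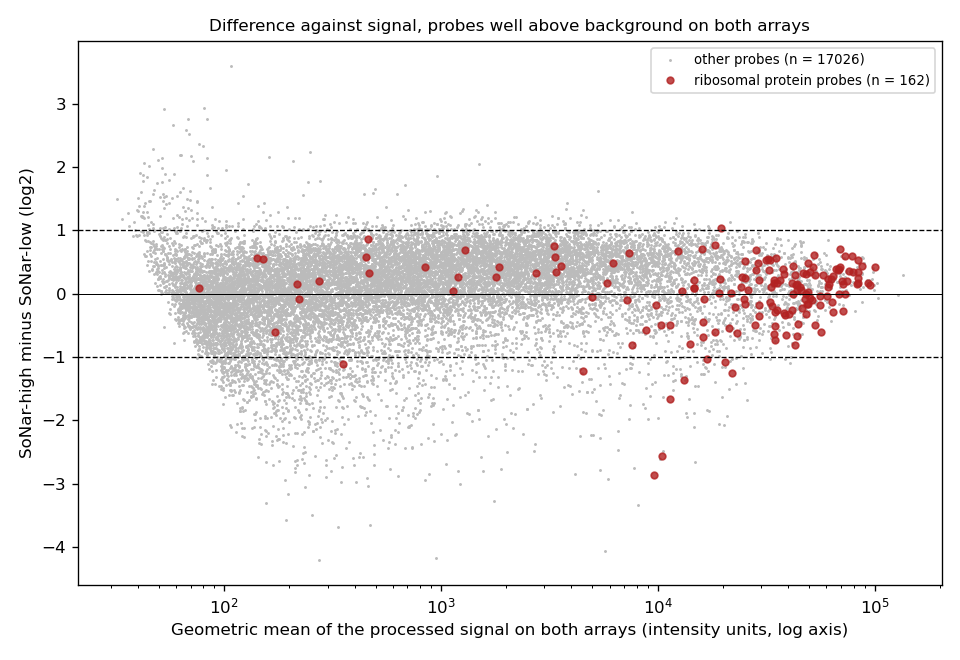
Difference (SoNar-high minus SoNar-low, log2) against the geometric mean of the processed signal on both arrays (intensity units, log axis) for 162 ribosomal protein probes in red and 17026 other probes in grey, all well above background on both arrays; dashed lines mark 2-fold. Red points cluster above 10000 units near 0, and the 2 lowest are probes of Rpl7a at -2.57 and -2.86.

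A probe that is low on 1 array has a lower mean, so the ranges were also set by each array alone, and this changed where the low values fell. Such ranges do not remove that dependence, since the signal that sets them is a term of the difference. A probe low on the SoNar-high array falls into a lower range there. By the SoNar-low array, the medians between 10000 and 30000 units were 0.03 over 42 member probes and 0.22 over 1055 others, and 5 of the 42 were past 2-fold lower (11.9%, against 7.3% of the others). At 30000 units or more they were 0.12 and 0.05, with 2 of 92 member probes past 2-fold lower (2.17%, against 5.25%). Between 1000 and 10000 units they were 0.33 and 0.34. By the SoNar-high array, the medians between 10000 and 30000 units were -0.13 over 39 and 0.37 over 1120, with 3 of the 39 past 2-fold lower (7.69%, against 1.96%). Between 1000 and 10000 units they were 0.00 over 26 and 0.40 over 5325, with 5 of the 26 past 2-fold lower (19.2%, against 2.91%). Those 5 were probes of Rpl7a, Rps3a1, Rpl24 and Rps24, which read from 7433 to 27685 units on the SoNar-low array. At 30000 units or more the medians were 0.17 and 0.23, with 0 of 85 past 2-fold lower, as were 0 of the 402 others. Between 10000 and 30000 units the members' median thus lay below that of other probes whichever array set the ranges, as it did by the mean of both. The size of that gap, and the order at 30000 units or more, depended on the array that set the ranges. Whether the gap follows the signal cannot be decided here, because the ranges were set by the same signals that give the difference.

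The last question was how other genes of translation compared. Other genes whose mRNAs have a TOP or whose products sit on the ribosome had a median of 0.17 over 20 genes, with 12 below the median gene and none past 2-fold under the main scaling. The lowest were Eef1a1, which brings aminoacyl-tRNA to the ribosome (-0.90), and Naca, which binds new chains at the exit (-0.47). The highest were Vim, an intermediate filament gene (0.51), and Hnrnpa1, an RNA-binding protein gene (0.50). Fau, which encodes a ribosomal protein fused to a ubiquitin-like domain and falls outside the symbol rule, was at 0.22, and the ribosome-bound scaffold Rack1 was at 0.09; both were named with their values in view.

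Ribosome biogenesis and RNA polymerase I genes had a median of 0.23 over 43 genes, with 3 at least 2-fold lower and 0 higher, against 4.39% and 2.4% of all genes. They ran from the nucleolar chaperone gene Npm3 (-2.71) and the processome gene Utp20 (-2.05) to the rRNA methyltransferase gene Nop2 (0.85) and the polymerase subunit gene Polr1d (0.87). The ribosomal proteins of mitochondria had a median of 0.30 over 77 genes. Of the 77, 2 were past 2-fold lower (4.39% of all genes were), Mrps5 (-1.11) and Mrpl1 (-1.13), and the highest were Mrps6 (0.81) and Mrps16 (0.99). Initiation factor genes had a median of 0.37 over 52 genes and none past 2-fold under the main scaling, from Eif4h (-0.40) and Eif5a2 (-0.39) to Eif1ax (0.77) and Eif1a (0.87). That list took every symbol starting with Eif and a digit, so it also holds regulators of initiation such as Eif2ak3 and Eif4ebp1. Eif3e, Eif3f, Eif3h and Eif4b are counted among the other TOP genes too, and Eif6 among the biogenesis genes. Below the median gene were 64.2% of the cytosolic ribosomal protein genes, 60% of the other TOP genes, 48.8% of the biogenesis genes, 39% of the mitochondrial ribosomal protein genes and 34.6% of the initiation factor genes. These shares differ in order, but with 1 array each no test of the differences between lists was possible.

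**Figure D4:**
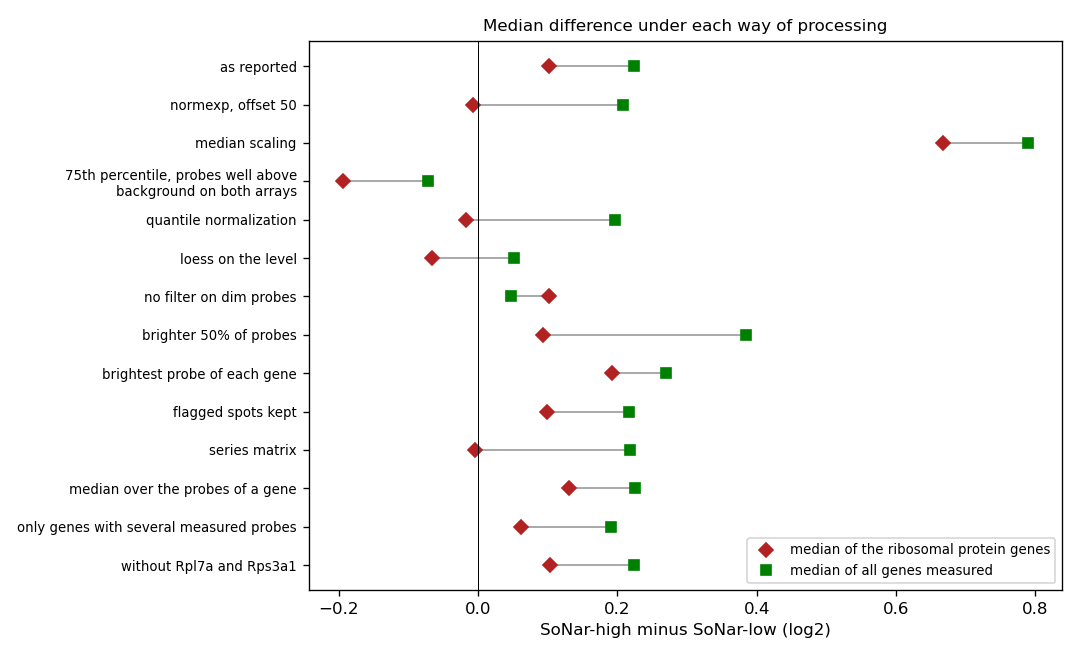
Median difference (SoNar-high minus SoNar-low, log2) of the ribosomal protein genes (diamonds) and of all genes measured (squares) under each way of processing. The members' median runs from -0.19 to 0.67 and lies below that of all genes except with no filter on dim probes, where these are 0.10 and 0.05.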

How the data were processed

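Total RNA of each population was labelled with Cy3 and hybridised to 1 one-colour Agilent array (labels' protocols). Scanner files as deposited hold intensity per spot, background-subtracted and not scaled between arrays, from Agilent Feature Extraction 11.0.1.1 per the file headers; the submitters' processing notes name 9.1. The authors' series matrix has log2 values with a median of 5.90 on both arrays. They ranked probes as the scanner signals did, and the probe differences ran the same way (Spearman's rho 0.813 across 39085 probes). How they were centred is not given in the sources used here.

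Control and flagged spots were left out, spots of a probe averaged on the log2 scale, and each array's 75th percentile over probes subtracted. Accessions were matched without versions to the RefSeq table of GRCm38.p6, used for names and start sequences only: 27115 of 39085 probes matched 20618 genes. A probe was measured if well above background on both arrays, and measured probes were averaged to give the difference of a gene. A gene was called at a 2-fold difference, a rule of size. The gene step was tested on simulated data.

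Named are all members past 2-fold, the 6 highest and 6 lowest, those whose probes span at least 1, the unmeasured, stalk, 5S and near-copy genes with their parents, Rpl7a, Rps3a1, Rpsa, Rps6, Rps14, Rps19 and Rps27a, and the 2 highest and 2 lowest of other lists. Members and lists were chosen with earlier results of these data known. Alternatives were normexp (offset 50, on the median spot signal), 4 other scalings (loess span 0.3), 2 filters on dim probes, the brightest probe, flagged spots kept, the series matrix and thresholds of 1.5-fold and 3-fold; 3 more were added after seeing the data. Python 3.11.15 with pandas 2.3.3 and statsmodels 0.14.6 and R 4.3.3 with limma 3.58.1 were used.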

Additional observations from a re-analysis of the deposited data

How the results depend on the processing

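The members' median of 0.10 moved by more than the spread between spots with median scaling (0.67), with a 75th percentile taken from measured probes only (-0.19) and with loess (-0.066). Relative to the median gene, the value of -0.12 moved to 0.055 with no filter on dim probes and to -0.29 with the brighter 50% of probes. No member was at least 2-fold higher, but 15 were with median scaling, against 32.1% of all genes. With no filter on dim probes 1 was (Rpl39l, not well above background on either array), against 9.14% of all genes. Past 1.5-fold higher were 5 members, against 20.4% of all genes. The 2 members lower became 1 with median scaling (Rpl7a, against 1.33% of all genes) and 1 with the brightest probe (Rps3a1, against 4.6%). Past 3-fold lower was 1 (Rpl7a, against 1.26%), and past 1.5-fold lower were 4 (against 10.2%). Of the alternatives chosen after seeing the data, the median over probes changed none of these counts. Genes with several measured probes only kept 51 of the 81 members, 2 of them lower, against 1.34% of all such genes. Leaving out Rpl7a and Rps3a1 gave 0 lower and a median of 0.10. Rpl7a was past 2-fold under 11 of 12 alternatives (-1.91 to -0.23) and Rps3a1 under 11 of 12 (-1.67 to -0.81). Some of these left both genes at their main values of -1.61 and -1.38, so they do not test the calls. Those were no filter on dim probes, the brighter 50% of probes and genes with several measured probes only. Keeping flagged spots hardly moved them either (-1.62 and -1.38). No paired analysis was possible because each population has 1 array. Leaving out a sample was not possible for the same reason. Signal limits the 4 members that were not well above background on both arrays.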
